A study of Mus musculus with 12 samples.

Results

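Expression of 31 genes of Schwann cells, nerve and neurotrophic signalling was measured in 12 dorsal skin wounds of diabetic mice. The genes were taken as a named list, and each of the 31 was found among the 54232 gene identifiers of the count files. All 31 had at least 15 counts summed over the libraries, with totals from 197 for Ugt8a to 53039 for Fa2h, and all 31 were among the 18618 genes tested. Every animal was a male of strain C57BLKS/J with genotype Lepr (db/db), a leptin receptor mutation that causes obesity and diabetes, and the labels give an age of 12.5 weeks. A full-thickness punch of 6 mm was made in the back skin, and tissue was taken on day 10. Wounds were covered by Tegaderm film alone (TD, 5 libraries), by a patch built to pull the tissue to about 30% strain (Strain, 4 libraries), or by a patch that applied no strain (No Strain, 3 libraries). No healthy mice, unwounded skin or other time points were analysed here, and the labels do not say which wounds shared an animal, so p-values measure the spread between these libraries.

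Schwann cells are the glia of peripheral nerve. Myelinating Schwann cells wrap axons in a sheath of compacted membrane, under the transcription factors SOX10, POU3F1 and EGR2, while non-myelinating cells bundle the fine sensory fibres that predominate in skin. After injury, Schwann cells can lower their myelin genes, raise proteins of the immature state such as the p75 receptor NGFR, and release neurotrophic factors that guide regrowing axons. Nerve loss in skin is a known feature of diabetes, and db/db mice are used to study it.

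Total counts ran from 20354677 to 25059371 per library, so 3 counts correspond to at most 0.147 CPM. CPM, the count as a share of the library total, was scaled here with TMM factors. The libraries held RNA of Schwann cells: the myelin genes Mbp and Prx had 79.5 ± 21.0 and 13.9 ± 4.25 CPM (SD, n = 5) in TD. Of 14 axon and neuron genes, 7 passed the filter on low counts, and the sensory neuron channels Scn9a and Scn10a had 2 and 10 counts over all 12 libraries together. Sample titles carry numbers of 1 to 6 for TD and 7 to 15 for the patch libraries, so any order behind those numbers cannot be told apart from treatment. Titles also carry a letter of unstated meaning. It is R for TD replicates 2, 3, 4 and 5, Strain replicate 3 and No Strain replicate 1, and L for the others, so it is in part tied to treatment. In whole tissue, fewer cells of a type and less RNA per cell cannot be told apart either.

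Under both patches, many of the 31 genes were lower than under film alone, none of the 31 was called higher, and 14 were called in no comparison. With the mean of both patch groups set against TD, 17 of the 31 genes (54.8%) fell (edgeR, Benjamini-Hochberg adjusted p below 0.05), where 12.1% of all tested genes were called lower. The genes were chosen with earlier results of these data known, so these shares are a description and not a test of the list. The median log2 change over the 31 genes was -0.60, against 0.01 over all genes tested, and the extremes were -1.61 for Cldn19 and -0.01 for Gap43. All 31 estimates lay below 0, as did 48.5% of those of all genes, and 12.4% of all genes were called higher (24.4% in either direction). For Strain against TD, 4 genes fell (12.9%, with 6.41% of all genes called lower and 6.2% higher, 12.6% in all), and for No Strain against TD 9 fell (29%, with 8.4% of all genes called lower and 9.35% higher, 17.8% in all). Egr2 and Cdh19 were called in both of these comparisons, which share the TD libraries. Of the 17 genes, 6 (Mal, Ncmap, Prx, Cldn19, Gjc3 and Ugt8a) were called in neither patch alone. A call for both patches thus refers to their mean and not to each patch. The count for both patches was sensitive to single libraries: it was 8 without TD replicate 2, 11 without TD replicate 1, 4 or 5, and 10 without No Strain replicate 2 or 3. It was 4 (Mal, Drp2, Cdh19 and Kcna1) with the title letter (L or R) as a covariate, where 6.88% of all genes were called lower, and 0 with the mean of skeletal muscle genes as one, while the median log2 change was -0.47 and -0.50 in these fits. The muscle covariate ended each call on the 31 genes apart from that of Cdh19 for No Strain, and it left 0.5% of all genes called for both patches, 0.36% lower. Without a filter on low counts the calls on Pou3f1, Mal, Cldn19, Ugt8a and Scn7a were lost.

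An unadjusted p under 0.05 was reached by 19 of the 31 genes for both patches (38% of all genes), by 14 for Strain (29.5% of all genes) and by 15 for No Strain (33.5% of all genes). Estimates below 0 were found for 30 of 31 genes under Strain (47.2% of all genes) and 28 of 31 under No Strain (49.3% of all genes). Every patch library was below every TD library for 3 genes, Egr2, Cdh19 and Kcna1 (5.27% of all genes). Strain lay wholly below TD for 5 genes (7.15% of all genes) and No Strain for 10 (12.5% of all genes). Exons of 8 of the 31 genes overlap another annotated gene, by up to 896 bases (Foxd3, Pou3f1, Cnp, Prx, Cldn19, L1cam, Ncam1 and Bdnf), and how reads there were assigned is not given, so their counts are less certain.

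**Figure D1:**
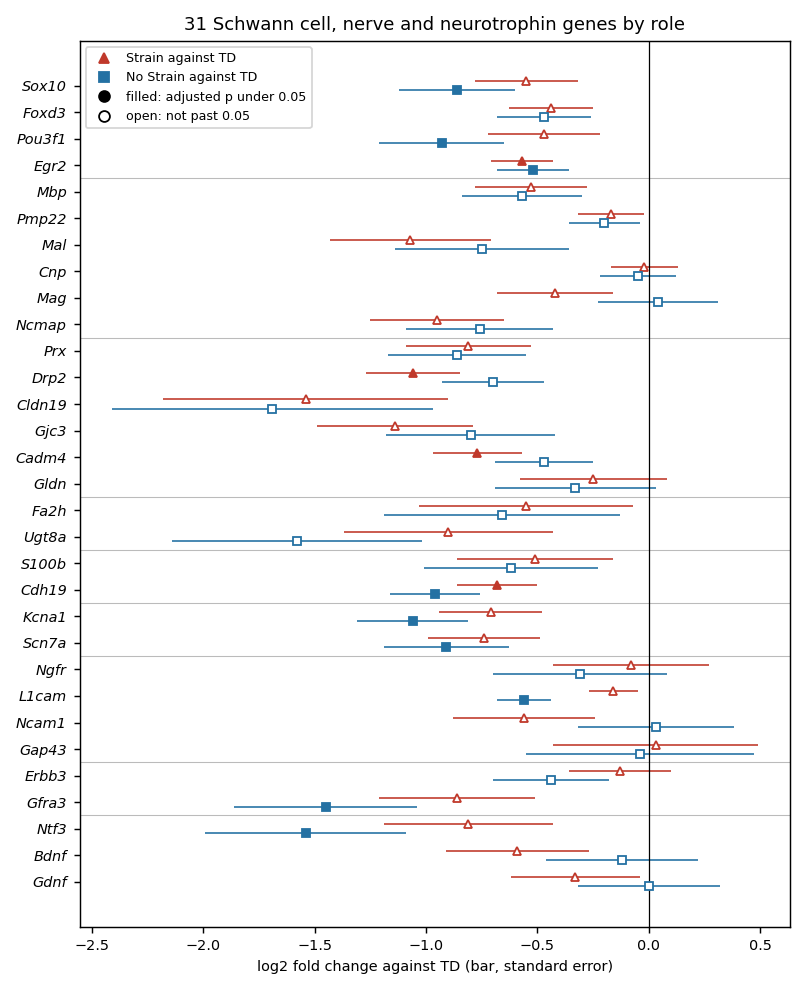
Log2 fold change (x axis, bar for the standard error) of each of the 31 genes, grouped by role, for Strain against TD (triangles) and No Strain against TD (squares); filled symbols have an adjusted p under 0.05. Nearly every symbol lies left of 0, with 30 of 31 genes below 0 for Strain and 28 of 31 for No Strain, and 4 and 9 symbols are filled.

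Among the transcription factors, 3 of 4 fell under the patches. Egr2 (ENSMUSG00000037868), which switches on the myelin programme and is also active in hair follicles and myeloid cells, had 40.1, 39.7, 53.3, 44.9 and 44.8 CPM in TD. It had 31.4, 31.4, 35.6 and 21.2 CPM under Strain and 31.2, 34.7 and 27.5 CPM under No Strain. Every patch library was below every TD library. Its log2 fold change (SE, standard error) was -0.57 for Strain (SE 0.14, edgeR adjusted p = 0.0262) and -0.52 for No Strain (SE 0.16, edgeR adjusted p = 0.0409). The Strain call was lost without TD replicate 3 or 4 or Strain replicate 2 (edgeR adjusted p 0.0529 to 0.0597). The No Strain call was lost without TD replicate 3, 4 or 5, Strain replicate 1 or any of the No Strain libraries (0.05 to 0.151). The call for both patches held without any 1 library and was lost with either covariate, at an edgeR adjusted p of up to 0.275.

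Sox10, the lineage factor of Schwann cells and melanocytes, had 7.78, 7.44, 6.22, 7.79 and 7.41 CPM in TD. Strain libraries had 4.42, 4.46, 6.85 and 4.27 CPM, and No Strain libraries 2.88, 6.22 and 2.97 CPM. Strain replicate 3 and No Strain replicate 2 thus reached the lowest TD values, and the other 5 patch libraries lay clearly below them. The fall was called for No Strain (log2 fold change -0.86, SE 0.26, edgeR adjusted p = 0.0397) and for both patches together (-0.70, SE 0.20, edgeR adjusted p = 0.0254), and not for Strain alone (-0.55, edgeR adjusted p = 0.138). The call for both patches was lost without TD replicate 1, 2 or 4 or No Strain replicate 1 or 3 (edgeR adjusted p 0.0524 to 0.0584), and the No Strain call without any of the 5 TD libraries or No Strain replicate 1 or 3 (0.051 to 0.152). Pou3f1, which acts before EGR2 in myelination and is also present in epidermis, had 56.5, 49.4, 79.9, 53.1 and 46.4 CPM in TD. Its values were 45.3, 34.6, 50.8 and 33.6 CPM under Strain and 38.6, 35.5 and 16 CPM under No Strain, where the groups did not overlap (log2 fold change -0.93, edgeR adjusted p = 0.0414). That call was lost without TD replicate 1, 2, 3 or 4 or any of the No Strain libraries (0.0502 to 0.108). Foxd3, a neural crest factor, had 2.32 ± 0.475 CPM (SD, n = 5) in TD, 1.70 ± 0.292 (SD, n = 4) under Strain and 1.67 ± 0.194 (SD, n = 3) under No Strain, and did not pass for both patches (edgeR adjusted p = 0.0602).

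**Figure D2:**
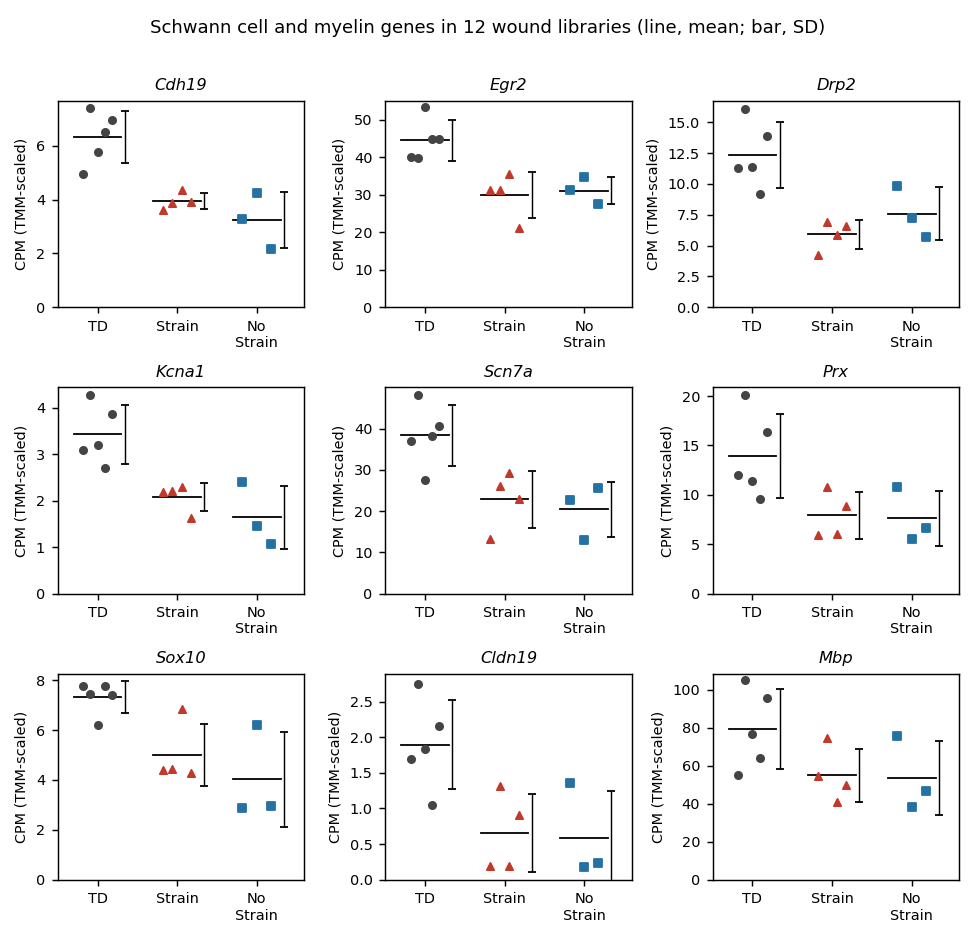
TMM-scaled CPM (y axes start at 0) of 9 genes in each library of TD (circles), Strain (triangles) and No Strain (squares), with the group mean (line) and SD (bar, ended at 0 where it would run below). For Cdh19, Egr2 and Kcna1 all 7 patch libraries lie below the 5 TD libraries; for Sox10, Strain replicate 3 at 6.85 and No Strain replicate 2 at 6.22 CPM lie near TD.

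The structural proteins of compact myelin were mostly not called. Mal and Ncmap were the 2 of 6 called lower for the mean of both patches, and neither was called for Strain or No Strain alone. Mal is a lipid raft protein of myelin that keratinocytes and other epithelia also make. Ncmap is a small membrane protein of peripheral myelin. Ncmap had 2.43, 3.98, 2.55, 3.39 and 3.33 CPM in TD, 2.43, 1.67, 0.701 and 1.73 CPM under Strain, and 2.34, 1.46 and 1.77 CPM under No Strain. Only Strain replicate 1 reached the lowest TD value, and the log2 fold change for both patches was -0.86 (SE 0.26, edgeR adjusted p = 0.0313). Mal had 9.91, 11.1, 4.78, 4.48 and 10.5 CPM in TD, 3.78, 3.92, 2.06 and 5.80 under Strain, and 4.41, 3.65 and 6.46 under No Strain. The Ncmap call was lost without TD replicate 2, 4 or 5 or No Strain replicate 2 or 3 (edgeR adjusted p 0.0594 to 0.0733). For Mal, TD replicates 3 and 4 lay within the range of the patch libraries, and the change was -0.91 (SE 0.30, edgeR adjusted p = 0.0484). The Mal call was lost without TD replicate 1, 2 or 5, Strain replicate 1, 2 or 3, or No Strain replicate 1 or 2 (0.0616 to 0.115).

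Mbp, the myelin basic protein that compacts the cytoplasmic faces of the sheath, had 55.4, 105, 77.0, 64.0 and 95.6 CPM in TD. Strain libraries had 54.4, 74.5, 41.1 and 49.9 CPM and No Strain libraries 75.7, 38.3 and 46.8 CPM. The groups overlapped, and its log2 change of -0.55 for both patches was not past the threshold (SE 0.21, edgeR adjusted p = 0.0831). Pmp22, a myelin protein that fibroblasts also express, was not called, with 176 ± 34.3 CPM (SD, n = 5) in TD and 155 ± 21.0 (SD, n = 7) in the patch libraries (edgeR adjusted p = 0.327). Mag, an adhesion molecule facing the axon, had 2.48 ± 0.853 CPM (SD, n = 5) in TD, 1.84 ± 0.450 (SD, n = 4) under Strain and 2.54 ± 0.346 (SD, n = 3) under No Strain. Cnp, an enzyme of non-compact myelin that many cell types express, had 32.9 ± 7.08 CPM (SD, n = 5) in TD and 32.1 ± 4.13 (SD, n = 7) in the patch libraries, with a log2 difference of -0.03 and an SE of 0.14.

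Scaffold and junction genes of the myelinating cell were the group with most calls, 5 of 6 lower for both patches. Drp2 (ENSMUSG00000000223), encoding dystrophin-related protein 2, lies on chromosome X from 134404551 to 134456573 (GRCm38). It had 11.3, 16.1, 11.4, 9.17 and 13.9 CPM in TD, 4.27, 6.89, 5.88 and 6.61 CPM under Strain, and 9.86, 7.25 and 5.67 CPM under No Strain. Strain libraries were all below TD, while No Strain replicate 1 lay above the lowest TD library. The log2 fold change was -1.06 for Strain (SE 0.21, edgeR adjusted p = 0.0120), or 2.09-fold lower, and -0.70 for No Strain (SE 0.23, edgeR adjusted p = 0.0519). The Strain call held in each of the 12 fits that left out a library.

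Prx encodes periaxin, the partner of DRP2 in the patches of membrane that attach myelin to the outer Schwann cell surface. Its values were 12.0, 20.1, 11.4, 9.61 and 16.4 CPM in TD, 5.91, 10.8, 6.07 and 8.91 CPM under Strain, and 10.8, 5.53 and 6.60 CPM under No Strain. Strain replicate 2 and No Strain replicate 1 were above the lowest TD library, and the change for both patches was -0.83 (SE 0.24, edgeR adjusted p = 0.0268). The Prx call was lost without TD replicate 2 or 5 or No Strain replicate 2 or 3 (edgeR adjusted p 0.0542 to 0.0689). Cadm4, an adhesion molecule that binds axons and is also found in epithelia, had 15.5, 18.7, 9.97, 10.6 and 18.5 CPM in TD. It had 9.99, 7.79, 7.63 and 8.96 CPM under Strain, where it fell by 0.77 on the log2 scale (edgeR adjusted p = 0.0318), and 12.2, 8.88 and 10.7 CPM under No Strain (edgeR adjusted p = 0.163). The Strain call for Cadm4 was lost without TD replicate 1, 2 or 5 or Strain replicate 2, 3 or 4 (0.0556 to 0.0936).

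Cldn19, the claudin of Schwann cell tight junctions, was the gene with the lowest ratio to TD. It had 1.69, 2.75, 1.83, 1.05 and 2.15 CPM in TD, 0.199, 1.31, 0.195 and 0.911 CPM under Strain, and 1.35, 0.172 and 0.232 CPM under No Strain. The patch libraries split into 4 at or below 0.232 CPM, which is 4 or 5 counts each, and 3 at or above 0.911 CPM, and that split ran across both patch types. The change for both patches was -1.61 (SE 0.54, edgeR adjusted p = 0.0487), and the call held in 2 of the 12 fits that left out a library, those without Strain replicate 2 or No Strain replicate 1, the adjusted p being 0.0546 to 0.108 in the others. Gjc3, a gap junction protein of myelinating glia, had 3.04, 3.04, 1.71, 2.42 and 2.41 CPM in TD, 0.646, 1.22, 1.09 and 1.63 CPM under Strain, and 2.52, 0.772 and 1.07 CPM under No Strain (both patches -0.97, edgeR adjusted p = 0.0347). The Gjc3 call was lost without TD replicate 1, 2, 4 or 5, Strain replicate 1 or 2, or No Strain replicate 2 or 3 (0.0508 to 0.0774). Gldn, the gliomedin of nodes of Ranvier, was not called, with 5.54 ± 0.701 CPM (SD, n = 5) in TD and 4.55 ± 2.03 (SD, n = 7) in the patch libraries.

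Because 17 of the 31 genes fell for both patches, promoters of the 31 were searched for the letters of SOX and EGR binding sites. Inside groups the genes did not all vary together: after subtraction of group means, the correlation of log2 CPM of Sox10 was -0.573 with Mbp and 0.62 with Cdh19. Windows of 250 bases before the annotated start were taken from RefSeq (GRCm38.p6) and were held for 20 of the 31 genes. SOX sites were searched as ACAAAG or ACAATG and EGR sites as GCGTGGGCG or GCGGGGGCG, on both strands. A SOX match was present for 4 of the 20 genes (20%), namely Cnp, Mag, Cadm4 and Bdnf, and for 28.2% of all genes with a promoter. An EGR match was present for 1 of the 20 (5%), Scn7a, and for 3.47% of all genes. The windows of Cadm4 (chr7:24481773-24482022, plus strand), Scn7a (chr2:66784911-66785160, minus strand) and Prx (chr7:27499074-27499323, plus strand) are shown 5′ to 3′ as 3 called genes that differ in their matches, with the match in capitals: a SOX match on the opposite strand for Cadm4, an EGR match on the opposite strand for Scn7a, and no match for Prx.
Cadm4: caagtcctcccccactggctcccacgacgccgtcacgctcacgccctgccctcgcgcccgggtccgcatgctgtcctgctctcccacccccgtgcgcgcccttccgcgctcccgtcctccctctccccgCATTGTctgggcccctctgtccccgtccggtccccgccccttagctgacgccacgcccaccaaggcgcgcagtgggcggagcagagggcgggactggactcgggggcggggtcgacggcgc
Scn7a: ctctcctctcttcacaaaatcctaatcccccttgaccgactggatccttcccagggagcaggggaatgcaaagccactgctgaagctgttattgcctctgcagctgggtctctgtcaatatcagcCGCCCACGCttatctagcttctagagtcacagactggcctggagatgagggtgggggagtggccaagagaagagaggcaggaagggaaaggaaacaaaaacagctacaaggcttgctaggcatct
Prx: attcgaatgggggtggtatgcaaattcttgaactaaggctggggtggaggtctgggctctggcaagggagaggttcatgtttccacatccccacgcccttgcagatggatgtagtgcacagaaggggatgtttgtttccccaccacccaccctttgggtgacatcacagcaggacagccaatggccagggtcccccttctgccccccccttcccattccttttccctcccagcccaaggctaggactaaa
The matches began 121 bases before the start in Cadm4 and 125 bases before it in Scn7a. A match is a description of these letters, and binding was not measured.

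Of the enzymes of myelin lipid synthesis, Ugt8a, which makes galactosylceramide, had few counts. Its values were 0.617, 1.77, 0.717, 0.485 and 1.62 CPM in TD, 0.298, 0.990, 0.350 and 0.575 CPM under Strain, and 0.450, 0.343 and 0.232 CPM under No Strain. Its change for both patches was -1.24 (SE 0.42, edgeR adjusted p = 0.0485), and the call held in 3 of the 12 fits that left out a library, those without TD replicate 1 or 4 or Strain replicate 2 (0.059 to 0.131 in the others). Fa2h, which hydroxylates the fatty acids of these lipids and is also active in sebaceous glands and hair follicles, had 162 to 343 CPM in TD, 61.4 to 345 CPM under Strain and 71.3 to 214 CPM under No Strain, and was not called. The summed level of 11 sebaceous and hair follicle markers was 1850 to 3720 CPM in TD and 1070 to 3150 CPM in the patch libraries. For both patches 6 of the 11 fell (54.5%, with 12.1% of all genes called lower), with a median log2 change of -1.02. The part of those cells in the values of Fa2h and Egr2 was not tested.

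Cdh19 (ENSMUSG00000047216), a cadherin of Schwann cell precursors and mature Schwann cells, had the smallest p of the 31 genes for both patches. It had 4.94, 7.39, 5.78, 6.50 and 6.97 CPM in TD, 3.63, 3.87, 4.36 and 3.93 CPM under Strain, and 3.29, 4.25 and 2.18 CPM under No Strain. All patch libraries were below all TD libraries. The log2 fold change was -0.68 for Strain (SE 0.18, edgeR adjusted p = 0.0341) and -0.96 for No Strain (SE 0.20, edgeR adjusted p = 0.0106). The No Strain call held in all 12 fits that left out a library and in all 8 other alternatives that could test it, with the muscle covariate among them, whereas the Strain call was lost without TD replicate 2, 3, 4 or 5 or Strain replicate 1, 2 or 4 (edgeR adjusted p 0.0562 to 0.0915) and with either covariate. The genes whose log2 CPM followed Cdh19 most closely over the 12 libraries were Sgsm2 (r = 0.951), Sec22c (r = 0.950) and Gatad2b (r = 0.947); these values are a description over libraries that differ in treatment, and after subtraction of group means they were 0.844, 0.800 and 0.788. S100b, a calcium-binding protein of Schwann cells that adipocytes also make, had 1.72 ± 0.382 CPM (SD, n = 5) in TD and 1.17 ± 0.531 (SD, n = 7) in the patch libraries and was not called (edgeR adjusted p = 0.196).

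Both ion channel genes fell. Kcna1, a potassium channel subunit clustered beside the nodes of myelinated axons, had 3.09, 4.27, 3.19, 2.71 and 3.86 CPM in TD, 2.19, 2.21, 2.30 and 1.63 CPM under Strain, and 2.39, 1.46 and 1.07 CPM under No Strain. All patch libraries were below TD, with log2 fold changes of -1.06 for No Strain (SE 0.25, edgeR adjusted p = 0.0176) and -0.71 for Strain (SE 0.23, edgeR adjusted p = 0.0588). The No Strain call was lost without No Strain replicate 2 or 3 (edgeR adjusted p 0.0557 to 0.0686), and the call for both patches held without any 1 library and was lost with the muscle covariate. Scn7a, a sodium-sensing channel of non-myelinating Schwann cells, had 36.9, 48.2, 27.6, 38.3 and 40.7 CPM in TD. It had 13.2, 26.0, 29.2 and 23.0 CPM under Strain and 22.6, 13.0 and 25.6 CPM under No Strain, so that Strain replicate 3 alone exceeded the lowest TD library (both patches -0.83, SE 0.22, edgeR adjusted p = 0.0183). This call held without any 1 library and was lost with either covariate and without a filter on low counts.

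Of the genes of the immature Schwann cell and the growing axon, 1 of 4 was called. Ngfr, the p75 neurotrophin receptor that Schwann cells raise after nerve injury, had 10.3, 11.4, 9.65, 13.5 and 10.7 CPM in TD, 11.4, 4.19, 17.4 and 9.06 CPM under Strain, and 5.40, 13.7 and 7.67 CPM under No Strain. Patch libraries lay both above and below TD, and the log2 difference for both patches was -0.19 (SE 0.31). Gap43, a protein of growth cones, had 5.51, 6.16, 2.55, 6.78 and 6.14 CPM in TD, 8.20, 1.94, 7.28 and 4.70 CPM under Strain, and 1.98, 8.75 and 5.11 CPM under No Strain. Its difference was -0.01 (SE 0.41), which leaves changes of either sign within the error. Ncam1, an adhesion molecule of non-myelinating Schwann cells that muscle lacking nerve contact also makes, had 55.1 ± 11.9 CPM (SD, n = 5) in TD, 37.2 ± 19.9 (SD, n = 4) under Strain and 56.4 ± 16.7 (SD, n = 3) under No Strain. L1cam, an adhesion molecule of axons and non-myelinating Schwann cells, was the called member. It had 26.5, 31, 35.6, 32.3 and 30.7 CPM in TD, 24.8, 29.2, 29.7 and 27.8 CPM under Strain, and 20.2, 25.2 and 18.1 CPM under No Strain, where all values were below TD (log2 fold change -0.56, SE 0.12, edgeR adjusted p = 0.0104).

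Within each patch group the library with the highest Mbp had the lowest Ngfr, Gap43 and Gdnf. Of the Strain libraries, replicate 2 had the highest Mbp (74.5 CPM) and the lowest Ngfr (4.19 CPM), Gap43 (1.94 CPM) and Gdnf (2.34 CPM), while replicate 3 had the lowest Mbp (41.1 CPM) and the highest Ngfr (17.4 CPM) and Gdnf (6.42 CPM); Gap43 was highest in Strain replicate 1 (8.20 CPM). Of the No Strain libraries, replicate 1 had the highest Mbp (75.7 CPM) and the lowest Ngfr (5.40 CPM), Gap43 (1.98 CPM) and Gdnf (3.47 CPM). No Strain replicate 2 had the lowest Mbp (38.3 CPM) and the highest Ngfr (13.7 CPM), Gap43 (8.75 CPM) and Gdnf (7.04 CPM). TD libraries showed no such order for Ngfr and Gap43. TD replicate 2 had the highest Mbp (105 CPM), while TD replicate 3 had the lowest Ngfr (9.65 CPM) and Gap43 (2.55 CPM). For Gdnf, at 4.07 to 6.34 CPM in TD, the order of the TD libraries is not given, so no contrast with TD is drawn. L1cam did not follow this order, with 29.2 CPM in Strain replicate 2 and 20.2 CPM in No Strain replicate 1, and neither did all myelin genes: Pmp22 and Mal were highest in No Strain replicate 3 (180 and 6.46 CPM), Mal in Strain replicate 4 (5.80 CPM) and Ncmap in Strain replicate 1 (2.43 CPM). The genes were picked after their values were seen, and the order was not tested.

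**Figure D3:**
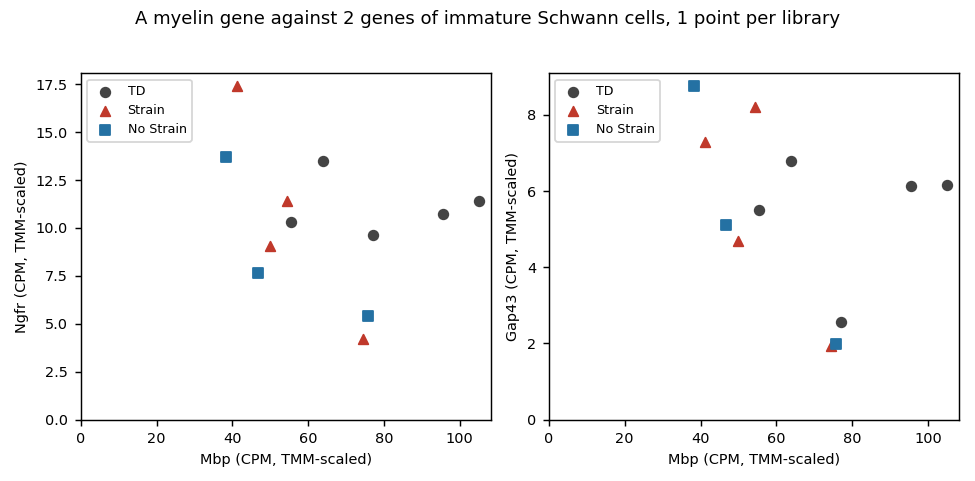
Mbp (x axes) against Ngfr (left) and Gap43 (right), in TMM-scaled CPM, with 1 point per library of TD (circles), Strain (triangles) and No Strain (squares). In both patch groups the library farthest right, at 74.5 or 75.7 CPM of Mbp, has the lowest Ngfr and Gap43, and the TD points show no such order.

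**Figure D4:**
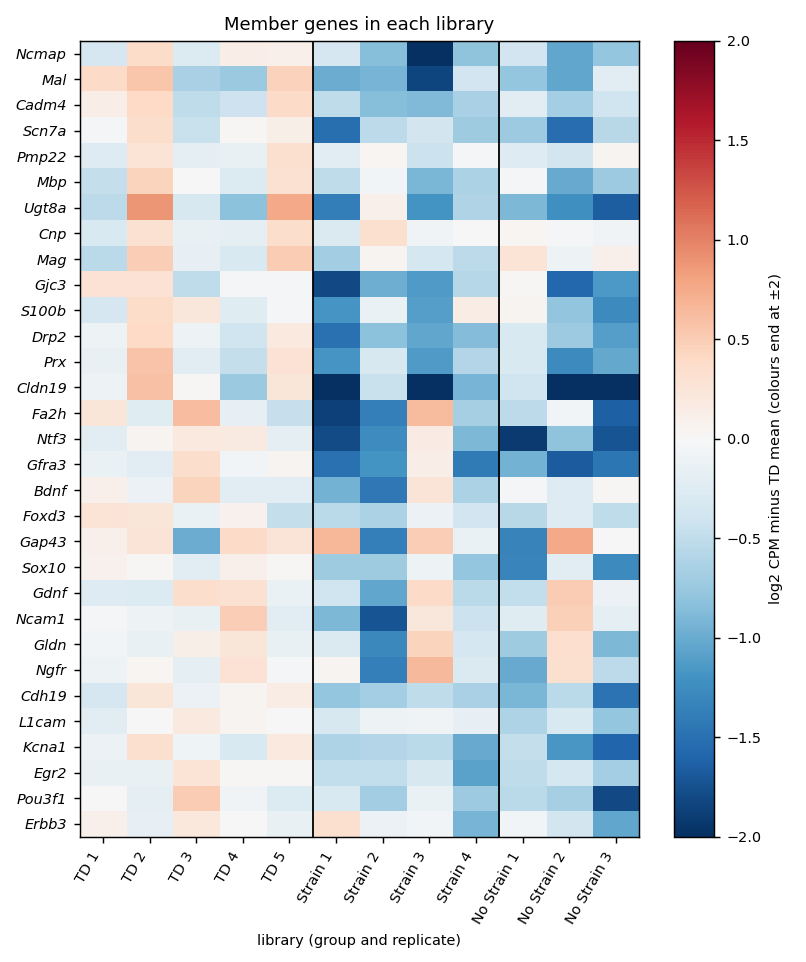
Log2 CPM of each gene (rows, ordered by how they vary together inside groups) minus its TD mean, for the 12 libraries (columns); blue is below the TD mean and red above, and colours end at ±2. Blue dominates the 7 patch columns, while Gap43, Gdnf, Ncam1, Gldn and Ngfr are red in Strain 3 and No Strain 2 and blue in Strain 2 and No Strain 1.

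Of the secreted factors, 1 of 3 fell. Ntf3, encoding neurotrophin-3, a survival factor for sensory neurons, had 1.19, 1.48, 1.63, 1.62 and 1.23 CPM in TD, 0.348, 0.540, 1.60 and 0.719 CPM under Strain, and 0.315, 0.772 and 0.372 CPM under No Strain. Strain replicate 3 matched the higher TD libraries and the other 6 patch libraries were below all of TD. The log2 fold change was -1.54 for No Strain (SE 0.45, edgeR adjusted p = 0.0376) and -0.81 for Strain (SE 0.38, edgeR adjusted p = 0.186). The No Strain call was lost without TD replicate 1, 2, 3 or 4 or No Strain replicate 1 or 3 (edgeR adjusted p 0.0507 to 0.134). Bdnf, the brain-derived neurotrophic factor, had 1.63 ± 0.366 CPM (SD, n = 5) in TD, 1.07 ± 0.613 (SD, n = 4) under Strain and 1.51 ± 0.158 (SD, n = 3) under No Strain. An antisense-strand gene overlaps 896 bases of its exons, and the strand setting of the counts is not given. Gdnf, the glial cell line-derived factor, had 5.01 ± 1.10 CPM (SD, n = 5) in TD, 3.96 ± 1.74 (SD, n = 4) under Strain and 5.02 ± 1.83 (SD, n = 3) under No Strain. Neither was called in any comparison.

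Of the receptors, Gfra3, through which artemin acts on sensory neurons and which Schwann cells also express, had 1.40, 1.31, 1.99, 1.49 and 1.62 CPM in TD. It had 0.497, 0.630, 1.71 and 0.527 CPM under Strain and 0.765, 0.429 and 0.511 CPM under No Strain. Strain replicate 3 again lay within TD and the other 6 were below it (No Strain -1.45, SE 0.41, edgeR adjusted p = 0.0323). That call was lost without TD replicate 3, 4 or 5 or any of the No Strain libraries (0.051 to 0.106), and the call for both patches without TD replicate 3 alone (edgeR adjusted p = 0.051). Erbb3, the neuregulin receptor of Schwann cells, melanocytes and keratinocytes, was not called, with 71.3 ± 8.16 CPM (SD, n = 5) in TD, 65.0 ± 21.3 (SD, n = 4) under Strain and 52.5 ± 16.9 (SD, n = 3) under No Strain.

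The partner genes of these pathways were read from 5 further lists. Of 8 neurotrophin ligands and receptors outside the 31 genes, 2 (25%) were called for both patches, and both are receptors that fell. Of all genes, 12.1% were called lower and 24.4% in either direction. Ntrk2, the TrkB receptor of BDNF, had 50.6, 64.3, 53.9, 48.4 and 55.4 CPM in TD, 29.4, 25.3, 27.6 and 21.7 CPM under Strain, and 22.4, 20.6 and 23.3 CPM under No Strain. The highest patch library was well below the lowest TD library, and the log2 fold change was -1.07 for Strain (SE 0.10, edgeR adjusted p = 0.000996) and -1.30 for No Strain (SE 0.12, edgeR adjusted p = 0.00037). For both patches it was called in each of the 12 fits that left out a library and in all 8 other alternatives. Ntrk3, the TrkC receptor of NT-3, had 6.38, 6.70, 9.09, 5.65 and 5.70 CPM in TD, 2.58, 2.43, 4.52 and 2.83 CPM under Strain, and 2.93, 3.39 and 1.21 CPM under No Strain, again without overlap (both patches -1.26, SE 0.24, edgeR adjusted p = 0.00468).

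**Figure D5:**
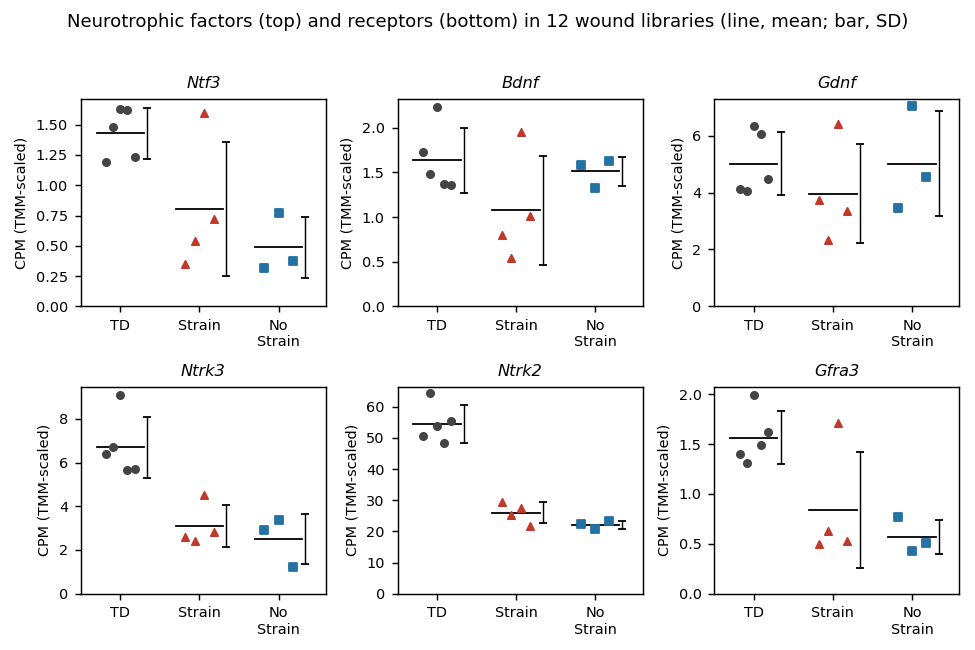
TMM-scaled CPM (y axes start at 0) of 3 neurotrophic factors (top) and 3 receptors (bottom) in each library, with the group mean (line) and SD (bar). Ntrk2 and Ntrk3 show no overlap between TD and the patch libraries, Ntf3 and Gfra3 overlap through Strain replicate 3, and Bdnf and Gdnf overlap widely.

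Of 15 tested genes on the list of other myelin and Schwann cell genes, 7 fell (46.7%) and 2 rose for both patches. Of all genes, 12.1% were called lower and 12.4% higher. Cadm3, an axonal adhesion molecule that binds CADM4, had 88.9 ± 30.4 CPM (SD, n = 5) in TD and 38.3 ± 9.79 (SD, n = 7) under the patches (log2 fold change -1.27, edgeR adjusted p = 0.00247). The 14 axon and neuron genes together summed to 15.6 to 31.8 CPM in TD, and which cells made the Cadm3 RNA was not tested. Adgrg6, the receptor that starts myelination, had 19.8 ± 2.49 CPM (SD, n = 5) and 12.6 ± 2.40 (SD, n = 7), a change of -0.67 (edgeR adjusted p = 0.00398). The 2 that rose were Nfasc, a nodal adhesion molecule also made by other cells, from 11.7 ± 2.27 (SD, n = 5) to 19.7 ± 2.41 CPM (SD, n = 7; edgeR adjusted p = 0.00242), and Gjb1, a gap junction gene shared with epithelia, from 0.725 ± 0.465 (SD, n = 5) to 1.83 ± 0.779 CPM (SD, n = 7; edgeR adjusted p = 0.0292). The Gjb1 call was lost without TD replicate 1, 3 or 4 or No Strain replicate 1 (0.0564 to 0.0732).

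The remaining lists are given for both patches, where 12.4% of all genes were called higher and 12.1% lower. Of 12 genes of immature and repair Schwann cells, 1 rose, the matrix gene Tnc, which wound fibroblasts also make (from 969 ± 249 CPM, n = 5, to 1670 ± 519 CPM, n = 7, both SD; edgeR adjusted p = 0.0337), and 0 fell; Jun and Sox2, factors of the repair state named after their values were seen, were not called. The Tnc call was lost without TD replicate 2, 3 or 5, Strain replicate 1 or 4, or No Strain replicate 2 or 3 (edgeR adjusted p 0.0515 to 0.0846). Of 6 tested neuregulin and ErbB genes, Adam17, a protease that cleaves membrane ligands, rose by 0.39 on the log2 scale (edgeR adjusted p = 0.0143) and Erbb2, the partner of ERBB3, fell by 0.46 on the log2 scale (edgeR adjusted p = 0.0246; 0.0523 to 0.0631 without TD replicate 1 or 3). Of 7 tested genes of the GDNF family and its receptors, Gdf15, a stress-induced cytokine, rose by 1.21 on the log2 scale (edgeR adjusted p = 0.0183) and 0 fell. With the muscle covariate the calls on Ntrk2 and Cadm3 held, and those on Ntrk3, Adgrg6, Nfasc, Gjb1, Tnc, Adam17, Erbb2 and Gdf15 were lost. With the title letter as a covariate the calls on Erbb2 and Tnc were lost, and that on Tnc was also lost without a filter on low counts.

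Marker genes of several other cell types were also called beside the nerve genes. For both patches 12.1% of all genes were called lower and 12.4% higher. Of fibroblast genes 1 of 9 was called lower, of keratinocyte genes 1 of 10 higher, and of macrophage genes 0 of 8 were called. Genes of developing or denervated muscle summed to 204 to 382 CPM in TD, 177 to 259 under Strain and 342 to 540 under No Strain, with 2 of 11 lower for both patches. Skeletal muscle genes summed to 6740 to 16500 CPM in TD, 3150 to 6040 under Strain and 4590 to 9980 under No Strain, and 6 of 12 fell for both patches. Adipocyte genes summed to 1170 to 2690 CPM in TD and 585 to 1240 in the patch libraries, with 9 of 10 lower. Neutrophil genes summed to 464 to 1710 CPM in TD and 949 to 9010 in the patch libraries, with 8 of 9 higher, and Strain replicate 3, where Sox10, Ntf3 and Gfra3 were near TD, had the lowest patch value of 949 CPM. That library also had the highest patch sums of adipocyte genes (1240 CPM) and of sebaceous and hair follicle genes (3150 CPM), and it alone of the Strain libraries has the title letter R. The part of muscle, fat, sebaceous glands, hair follicles and neutrophils in the fall of the nerve genes was not tested. Endothelial and pericyte genes summed to 745 to 897 CPM in TD and 865 to 1240 CPM in the patch libraries, with 5 of 8 higher and 1 lower. Melanocytes share Sox10 and Erbb3 with Schwann cells. Of 8 tested melanocyte genes, 4 rose for both patches and 0 fell; 6 rose for Strain, where Sox10 was not called, and 0 were called for No Strain, where Sox10 fell. The part of melanocytes in the Sox10 and Erbb3 values was not tested. Pmel had 3.11 ± 0.650 CPM (SD, n = 5) in TD and 7.84 ± 4.80 (SD, n = 7) under the patches, and the summed level, mostly Gpnmb, was 495 to 1970 CPM in TD and 744 to 2440 CPM in the patch libraries. Of 7 tested axon and neuron genes, 1 rose (Rbfox3, at 0.180 ± 0.0934 CPM, n = 5, and 0.551 ± 0.274 CPM, n = 7, both SD) and 0 fell; the list summed to 15.6 to 31.8 CPM in TD and 14.3 to 33.1 CPM in the patch libraries.

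Strain and No Strain both wore a patch and differ, by the labels, in the imposed strain. None of the 31 genes was called in edgeR (0% of all genes were called either), 1 had an unadjusted p under 0.05 (5.61% of all genes did), 10 of 31 estimates lay below 0 (47.8% of all genes), and DESeq2 called 0 of the 31 (33 of all genes, 0.177%). The smallest adjusted p among them was 0.872, for L1cam, which was 0.40 higher on the log2 scale under Strain (SE 0.12). It was followed by Ncam1, at 29.0, 16.4, 63.3 and 40.3 CPM under Strain and 45.8, 75.7 and 47.8 CPM under No Strain (-0.60, SE 0.36), and Pou3f1 (0.45, SE 0.29). The median log2 difference over the 31 genes was 0.06, against 0.01 over all genes, with single genes from -0.60 to 0.73. For each of the 31 genes the 2 groups overlapped, while 2.77% of all genes had Strain wholly below No Strain. With these errors, equal levels in the 2 patch groups are not shown.

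Levels per kilobase of exon rank the genes within TD. Fa2h (76.8 ± 24.1 CPM per kilobase, SD, n = 5) and Pmp22 (74.7 ± 14.6) were highest and did not differ beyond their spread, and Pou3f1 (14.8 ± 3.46), Egr2 (13.1 ± 1.61), Erbb3 (11.9 ± 1.36), Mbp (9.38 ± 2.47) and Cnp (9.03 ± 1.94) followed. Each step in that order was within the SDs of neighbours apart from the steps from Pmp22 to Pou3f1 and from Sox10 (2.40 ± 0.212) to Cdh19 (1.48 ± 0.228). Bdnf (0.263 ± 0.0588) and Ugt8a (0.230 ± 0.133) were lowest.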

How the data were processed

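Poly(A) RNA from 12 wounds was sequenced, 1 library per wound. The deposited values are raw counts per Ensembl gene, per the file headers. The submitters' processing notes name build GRCm38 and the tools bcl2fastq 2.17, FastQC, cutadapt, STAR, featureCounts and DESeq2, without role or order; the strand setting and the rule for reads matching several genes are not given in the sources used here. Per the labels' protocols, libraries were made with the NEBNext Ultra kit. Symbols were matched for 54079 of 54232 identifiers, with exon lengths from GENCODE M21.

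Genes were kept by filterByExpr (minimum count 10, minimum total 15), scaled by TMM and fitted over all 12 libraries with the robust quasi-likelihood test of edgeR 4.0.16 in R 4.3.3. P-values were adjusted by Benjamini-Hochberg over 18618 genes, with a threshold of 0.05. Log2 CPM adds a prior count of 2. Standard errors come from the fold change and its F statistic. DESeq2 1.42.0 was an alternative. Chi-square per degree of freedom between the 19 replicate pairs was 9.11 to 71.9, so no library was a duplicate. The fit was tested on simulated data.

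Full per-library values are given for genes past the threshold in any comparison and the 3 with the smallest p between patches; of each pathway list, up to 2 called genes per direction with the smallest p are named. The members and lists were chosen with earlier results of these data known.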

Additional observations from a re-analysis of the deposited data

Results flagged for a closer look

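In the 5 TD and the 4 Strain libraries, the highest and lowest log2 CPM of each of the 31 genes were set against the other libraries. Of 62 group values, 5 stood apart, and chance alone gives about 3.1, since about 1 in 20 groups is picked by chance. Sox10 was lowest in TD replicate 3, at 2.66 against 2.91 in the next library, and highest in Strain replicate 3, at 2.79 against 2.18. Gap43 was also lowest in TD replicate 3, at 1.40 against 2.49. Ncam1 was highest in TD replicate 4, at 6.25 against 5.73. Kcna1 was lowest in Strain replicate 4, at 0.78 against 1.18. No cause of these values was tested.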

How the results depend on the processing

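Counts of genes lower than TD, out of 31, are given in the order Strain, No Strain, both patches, and were 4, 9 and 17. Adjusting for the title letter gave 0, 4 and 4 (of all genes, 4.29%, 11.5% and 13.9% were called in either direction), and adjusting for the skeletal muscle mean 0, 1 and 0 (0.00537%, 5.22% and 0.5%). With a mean of at least 5 CPM, which left 17 of the 31 genes, No Strain had 5 and both patches 9 (20.3% and 27.3% of the genes left). DESeq2 called 10 for Strain (18.9% of all genes, 9.69% lower). Leaving out 1 library at a time gave 1 to 6, 2 to 10 and 8 to 17. Why the counts moved was not tested, apart from the smaller number of genes tested at 5 CPM. For Strain the count was 2 without TD replicate 2, 3, 4 or 5 or Strain replicate 4, and 1 without Strain replicate 2. For No Strain it was 5 without TD replicate 1, 2 or 5, 4 without TD replicate 3 or 4 or No Strain replicate 2, and 2 without No Strain replicate 3. Other scalings, no filter on low counts, no robust weights and fits on only the groups compared stayed within 1.5 times. For Strain against No Strain each alternative called 0. No called change turned direction. Among genes not called, the sign for both patches turned for Cnp (0.04 with the title letter, and 0.01 to 0.06 without TD replicate 2 or 5 or Strain replicate 1, in a range of -0.11 to 0.06 without single libraries), Gap43 (0.00 without a filter, and 0.01 to 0.19 in 7 fits without 1 library, in a range of -0.30 to 0.19), and, with the muscle covariate, Fa2h (0.23), Bdnf (0.42) and Gdnf (0.05). No paired analysis was possible because the labels give no replicate numbers shared between groups.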
